A study of Homo sapiens with 6 samples.

Results

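Tamoxifen and its active form 4-hydroxytamoxifen (4-OHT) act on cells through receptors, and 10 genes of these receptors and of their targets were followed in MRC5 fibroblasts that had received conditioned media (CM). They were taken from the deposited count table by gene symbol and are the estrogen receptor genes *ESR1* and *ESR2*, the membrane estrogen receptor gene *GPER1*, the estrogen-induced genes *PGR* and *GREB1*, the estrogen-related receptor gene *ESRRA*, the aryl hydrocarbon receptor gene *AHR* and its targets *AHRR*, *CYP1B1* and *TIPARP*. All 10 symbols were found, each with 1 identifier, among the 58676 identifiers of the table, and 9 of them were among the 19072 genes that could be tested, which reached a sum of 10 counts. *PGR* had no count and was not tested.

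RNA-Seq had been performed on MRC5 cells, an established line of human lung fibroblasts, after 24 h in CM of ATII cells, a human alveolar epithelial type II line in which 4-OHT switches on an oncogene. CM came either from control ATII cells (control ATII CM, 3 libraries) or from ATII cells treated with 4-OHT (4-OHT ATII CM, 3 libraries). No library of fibroblasts given 4-OHT directly, or of CM without ATII cells, is among the 6, so carried-over 4-OHT and the products of ATII cells that 4-OHT had changed cannot be told apart. All values come from 1 fibroblast line, and the labels do not say whether the replicates were separate cultures, so p values measure the spread between these libraries, which may be technical.

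In the absence of hormone, estrogen receptors lie idle in the cell. Estrogen lets them bind DNA at estrogen response elements and switch on genes such as *PGR* and *GREB1*, and 4-OHT occupies the same pocket as an antagonist or partial agonist, depending on the tissue. 4-OHT is also known as an agonist of GPER1, a G protein-coupled receptor, and as a ligand of AHR, which pairs with ARNT and switches on genes of xenobiotic metabolism together with its own repressors AHRR and TIPARP. The comparison asks whether any arm of this machinery is present in the fibroblasts and whether it moved with the CM.

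*TIPARP* was the only one of the 9 tested genes that passed the test. It rose 1.25-fold in 4-OHT ATII CM (95% interval 1.18 to 1.32), whereas no gene fell at an adjusted p below 0.05. The other AHR targets, *AHRR* and *CYP1B1*, also lay higher in every library of 4-OHT ATII CM but did not pass. *ESR1*, *ESR2* and *GREB1* were at a few counts per library, and *PGR* was at 0. Thus 1 of 9 genes was called upregulated and 0 downregulated by the quasi-likelihood test of edgeR, where 2.95% and 2.76% of all 19072 tested genes were, or 5.72% in either direction. DESeq2 and limma-voom gave the same counts of 1 and 0. Without adjustment, 3 of the 9 genes had a p below 0.05, against 17.3% of all genes, and all 3 were higher.

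Levels of the 10 genes can be compared with each other only per length, as TPM (counts divided by exon length and scaled to the same sum in each library). *TIPARP* and *AHRR* were the highest, with medians of 44.4 and 43.5 TPM over the 6 libraries, and their ranges overlapped. *ESRRA* followed at 35.8 TPM, *AHR* at 11.1 TPM, *GPER1* at 3.78 TPM and *CYP1B1* at 2.18 TPM, and from *AHRR* down to *GREB1* no range overlapped with that of the next gene. *GREB1* at 0.115 TPM, *ESR2* at 0.0547 TPM and *ESR1* at 0.0455 TPM had ranges that overlapped from each to the next. The fibroblasts therefore held *AHR* RNA at a level far above that of either nuclear estrogen receptor.

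**Figure D1:**
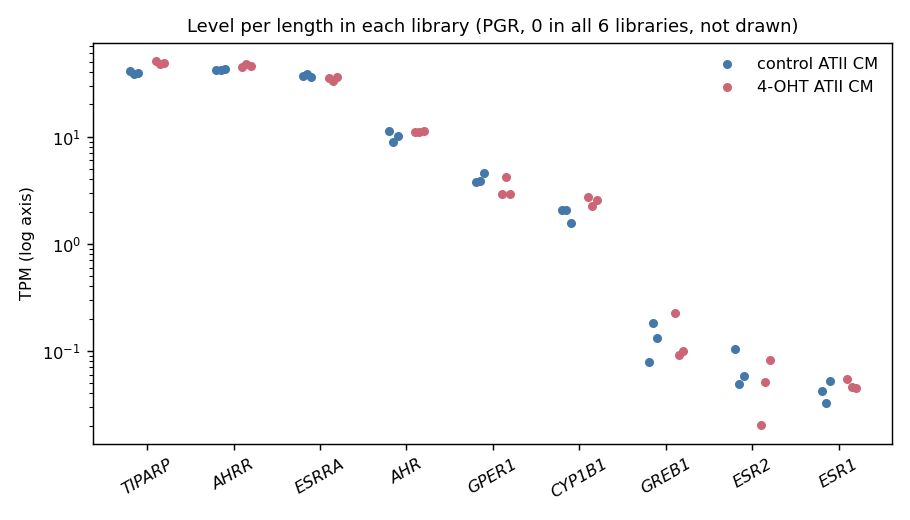
Level per length of 9 of the 10 genes in each library, in TPM on a log axis, with blue points for control ATII CM and red points for 4-OHT ATII CM (3 libraries each, genes ordered by mean). *TIPARP*, *AHRR* and *ESRRA* lie between 33.3 and 51.0 TPM, and *GREB1*, *ESR2* and *ESR1* between 0.0201 and 0.228 TPM.

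The estrogen receptors come first. *ESR1* (ENSG00000091831, chromosome 6 of GRCh38, 151656691 to 152129619, plus strand) encodes estrogen receptor α, the main target of tamoxifen. It had 3, 2 and 4 counts in replicates 1 to 3 of control ATII CM and 4 in each replicate of 4-OHT ATII CM. These 9 and 12 counts in all have exact 95% Poisson intervals of 4.12 to 17.1 and 6.20 to 21.0, which overlap widely and cover counting error only. The groups overlapped, and the fitted log2 fold change of 0.17 had a 95% interval from -1.14 to 1.49 (adjusted p = 0.934 from edgeR). No change was detected at this depth, and the interval spans 0.453-fold to 2.81-fold. With 1 library left out the value ranged from 0.046 (without control replicate 2) to 0.35 (without control replicate 3). In cultured cells seen in bulk, fewer cells with a transcript and less transcript per cell cannot be told apart.

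*ESR2* (ENSG00000140009, chromosome 14, 64084232 to 64338112, minus strand) encodes estrogen receptor β. It had 5, 2 and 3 counts in control ATII CM, against 1, 3 and 5 in 4-OHT ATII CM. No library stood clear of the rest, and the log2 fold change of -0.38 had a 95% interval from -1.88 to 1.11 (adjusted p = 0.851). With 1 library left out it ranged from -0.88 (without 4-OHT replicate 3) to -0.011 (without control replicate 1). For comparison, an observed count of 0 in a library is taken to allow an expected count of up to 3. This floor corresponds to 0.114 to 0.170 CPM (counts scaled to library size) in these libraries. Both receptor genes lay near it, but each had counts in every library. The exact 95% Poisson intervals of their summed counts excluded 0 in both groups, so both transcripts were present at a low level.

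*GPER1* (ENSG00000164850, chromosome 7, 1082208 to 1093815, plus strand) was the best measured of the estrogen receptors. Its level was 2.86, 2.97 and 3.57 CPM in control ATII CM and 2.24, 3.29 and 2.28 CPM in 4-OHT ATII CM. Replicate 2 of 4-OHT ATII CM lay among the control values, so the groups overlapped. The means were 3.13 ± 0.386 CPM (SD, n = 3) and 2.60 ± 0.594 CPM (SD, n = 3), a log2 fold change of -0.27 with a 95% interval from -0.66 to 0.13 (adjusted p = 0.519). It was -0.47 without 4-OHT replicate 2 and -0.16 without control replicate 3, and was called in neither. None of its exon bases is shared with another gene of the table.

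The estrogen-induced genes *PGR* and *GREB1* had no or few counts. *PGR* (ENSG00000082175, chromosome 11, 101029624 to 101130524, minus strand), which encodes the progesterone receptor and is a textbook readout of estrogen receptor activity, had 0 counts in all 6 libraries. Over the 135093001 counts of the libraries together, this allows a level of up to 0.0222 CPM. *GREB1* (ENSG00000196208, chromosome 2, 11482341 to 11642788, plus strand), an early estrogen target and a cofactor of the receptor, had 5, 10 and 9 counts in control ATII CM, against 15, 7 and 8 in 4-OHT ATII CM. Replicate 1 gave both the lowest control value and the highest 4-OHT value. The log2 fold change was 0.085 with a 95% interval from -0.91 to 1.08 (adjusted p = 0.955), and it became -0.19 without control replicate 1 and -0.40 without 4-OHT replicate 1.

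*ESRRA* (ENSG00000173153, chromosome 11, 64305572 to 64316743, plus strand) encodes estrogen-related receptor α, an orphan receptor that drives genes of mitochondrial energy metabolism and does not bind estrogen. It was at 27.1, 28.7 and 26.74 CPM in control ATII CM and at 26.2, 25.2 and 26.71 CPM in 4-OHT ATII CM. All 3 values of 4-OHT ATII CM were below those of control ATII CM, by the narrowest margin, as were those of 10.4% of all genes tested. The log2 fold change of -0.077 had a standard error of 0.0558 and a 95% interval from -0.20 to 0.041 (adjusted p = 0.539), which bounds the change to between 0.873-fold and 1.03-fold. Its 3′ end shares 284 bases with *TRMT112* on the opposite strand.

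*AHR* and its targets *TIPARP*, *CYP1B1* and *AHRR* had at least 52 counts in every library. *AHR* (ENSG00000106546, chromosome 7, 16916359 to 17346152, plus strand), the ligand-bound receptor itself, was at 22.2, 17.8 and 19.99 CPM in control ATII CM and at 21.8, 22.3 and 22.8 CPM in 4-OHT ATII CM. Control replicate 1 lay among the 4-OHT values, so the groups overlapped. The means were 19.99 ± 2.18 CPM (SD, n = 3) and 22.3 ± 0.483 CPM (SD, n = 3), a log2 fold change of 0.15, with a standard error of 0.0743 (adjusted p = 0.308). Without control replicate 2, the library with the lowest *AHR* value and the fewest counts, it was 0.082 (adjusted p = 0.596), and without control replicate 1 it was 0.23 (adjusted p = 0.112). Of the 8081 exon bases of *AHR*, 2373 are shared with ENSG00000283321 on the same strand, which had 0 counts, and whether reads on shared bases were dropped is not stated, so its level per length may be understated.

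*TIPARP* (ENSG00000163659, chromosome 3, 156673235 to 156706770, plus strand) encodes an ADP-ribosyltransferase that AHR induces and that represses AHR in turn. It was at 50.2, 47.8 and 48.5 CPM in control ATII CM and at 62.5, 60.2 and 60.3 CPM in 4-OHT ATII CM. The groups were far apart for their spread, with means of 48.8 ± 1.25 CPM (SD, n = 3) and 61.0 ± 1.32 CPM (SD, n = 3). The log2 fold change was 0.32 (standard error 0.0403, 95% interval 0.23 to 0.41, adjusted p = 0.000194 from edgeR). By p it ranked 84 among the 19072 genes, whereas 27.2% of the 563 upregulated genes changed more. The overlap with *TIPARP-AS1* on the opposite strand is 37 bases, and that gene was at 0.157 and 0.145 CPM in the groups.

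*CYP1B1* (ENSG00000138061, chromosome 2, 38066973 to 38109902, minus strand) encodes a cytochrome P450 that oxidizes estrogens and polycyclic hydrocarbons and is the AHR target typical of mesenchymal cells. It was at 3.00, 3.08 and 2.29 CPM in control ATII CM and at 4.02, 3.41 and 3.80 CPM in 4-OHT ATII CM, and the groups did not overlap. The log2 fold change of 0.43 was larger than that of *TIPARP*, but its standard error was 0.161 and its 95% interval 0.086 to 0.77, and it did not pass in edgeR (adjusted p = 0.159). Control replicate 3, the lowest library, carried part of the difference, and the log2 fold change was 0.29 without it. Exons of *CYP1B1* share 678 bases with *CYP1B1-AS1* and 96 bases with *RMDN2* on the opposite strand. *RMDN2* was the higher of these neighbours, at 4.25 and 4.73 CPM (log2 fold change 0.15, adjusted p = 0.629), and its part in the *CYP1B1* count was not tested.

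*AHRR* (ENSG00000063438, chromosome 5, 304176 to 438291, plus strand) encodes the AHR repressor, which competes with AHR for ARNT. It was at 78.0, 79.5 and 80.5 CPM in control ATII CM and at 82.7, 91.2 and 86.9 CPM in 4-OHT ATII CM. Every 4-OHT value lay above every control value, but the log2 fold change was only 0.13 (standard error 0.0420, 95% interval 0.043 to 0.22, adjusted p = 0.0844). With *TIPARP* and *CYP1B1*, 3 of the 9 genes had all 4-OHT values above all control values, which 11.7% of all genes tested showed. *AHRR* was called without 4-OHT replicate 1 (adjusted p = 0.0435) and not without 4-OHT replicate 2 (log2 fold change 0.095, adjusted p = 0.328). Of its 7678 exon bases, 244 are shared in the table with the neighbour *PDCD6*, at 72.6 and 73.5 CPM (log2 fold change 0.020, adjusted p = 0.867), and 5660 belong in GENCODE 44 also to the read-through gene *PDCD6-AHRR*, so that *AHRR* counts can hold read-through transcripts.

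**Figure D2:**
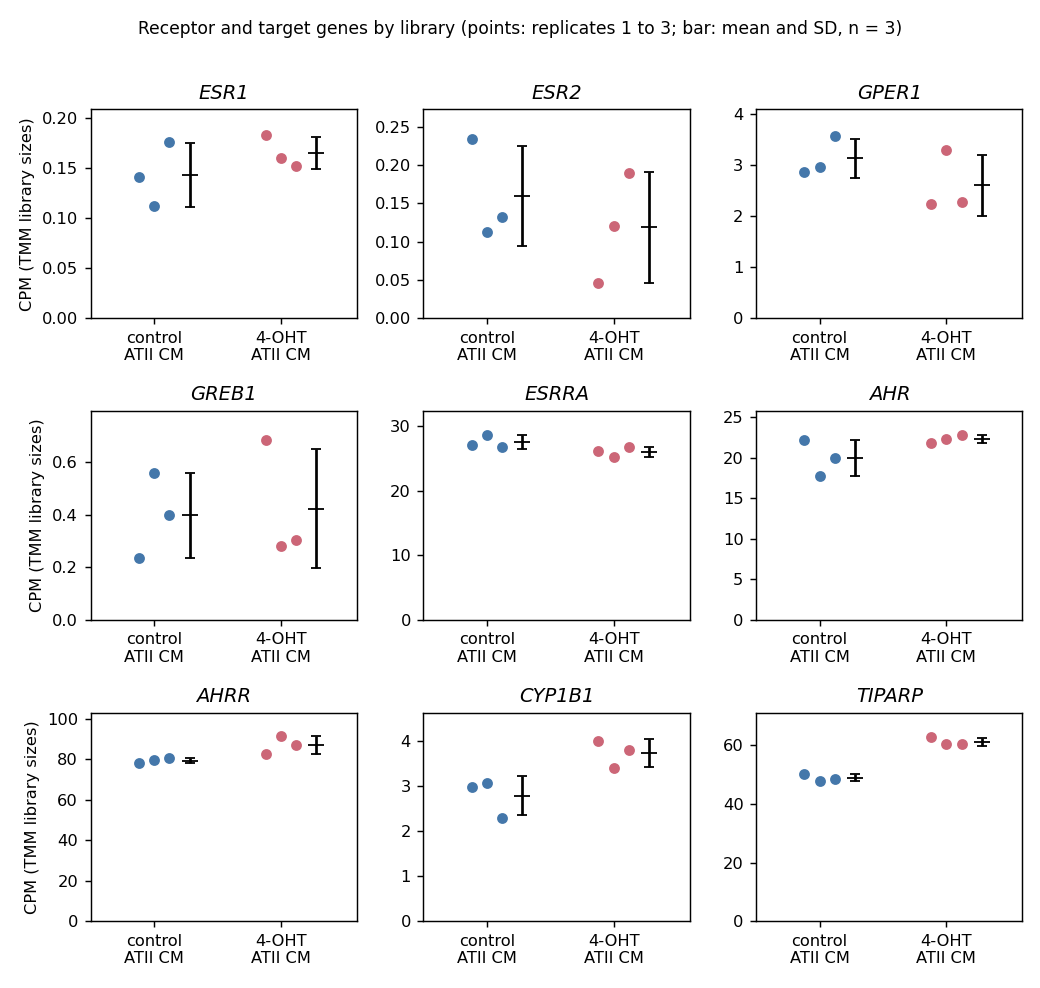
Level of each tested gene in each library, in CPM on TMM-scaled library sizes, with blue points for control ATII CM and red points for 4-OHT ATII CM (replicates 1 to 3 from left to right) and a bar for the mean and SD of each group (n = 3); every panel starts at 0 and has its own scale. *TIPARP*, *CYP1B1* and *AHRR* have all red points above all blue ones, and *ESR1*, *ESR2*, *GPER1*, *GREB1* and *AHR* overlap.

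**Figure D3:**
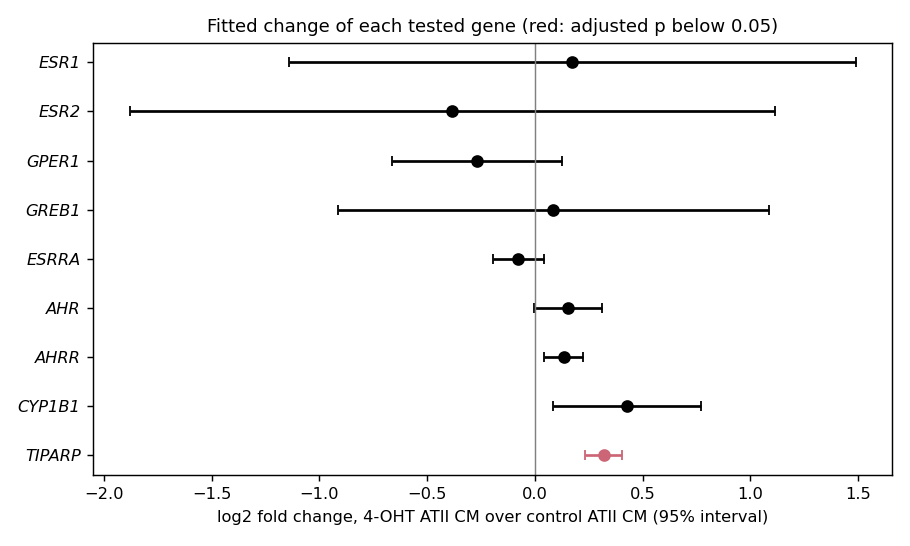
Fitted log2 fold change of each tested gene, 4-OHT ATII CM over control ATII CM, with its 95% interval from edgeR; red marks an adjusted p below 0.05. Only *TIPARP*, at 0.32, is red, and the intervals of *ESR1*, *ESR2* and *GREB1* are the widest.

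The profile of *TIPARP* over the 6 libraries was most like those of *PIK3IP1*, *ARHGAP28* and *SESN3*, among 9201 other genes with a mean of at least 10 CPM. Their root mean square distances from it, on centred log2 CPM values, were 0.0195, 0.0234 and 0.0239. The nearest profiles to that of *CYP1B1* were those of *CTTNBP2*, *PLPPR3* and *RGS5*, farther off at 0.0834, 0.0852 and 0.112. *CYP1B1* had 52 to 100 counts per library and *TIPARP* 854 to 1584, and *CYP1B1* itself was below 10 CPM. The part of counting noise in its larger distances was not tested. These distances describe 6 libraries only.

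Promoter sequence is shown for *TIPARP*, the gene that passed the test, and for *AHRR*, its partner in AHR feedback. RefSeq promoter windows on GRCh38.p14 were found for 8 of the 10 genes, 23 windows in all, and none for *CYP1B1* and *GREB1*. The 250 bases before each RefSeq start were searched on both strands for GCGTG, the core that AHR with ARNT binds, and a match is marked in capitals (CACGC is the same core on the other strand). The windows are chr3:156674340-156674589 for *TIPARP* and chr5:321464-321713 and chr5:322360-322609 for *AHRR*, all on the plus strand and written 5′ to 3′.
TIPARP: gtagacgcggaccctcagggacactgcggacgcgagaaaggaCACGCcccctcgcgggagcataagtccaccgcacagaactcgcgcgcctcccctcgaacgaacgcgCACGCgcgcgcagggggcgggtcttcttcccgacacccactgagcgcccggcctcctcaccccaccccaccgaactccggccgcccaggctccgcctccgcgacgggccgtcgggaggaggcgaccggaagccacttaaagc
AHRR, first start: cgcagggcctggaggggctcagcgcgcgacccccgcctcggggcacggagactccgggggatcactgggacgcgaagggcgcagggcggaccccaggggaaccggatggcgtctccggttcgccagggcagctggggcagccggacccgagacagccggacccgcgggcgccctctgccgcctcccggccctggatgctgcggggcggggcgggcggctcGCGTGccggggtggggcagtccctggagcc
AHRR, second start: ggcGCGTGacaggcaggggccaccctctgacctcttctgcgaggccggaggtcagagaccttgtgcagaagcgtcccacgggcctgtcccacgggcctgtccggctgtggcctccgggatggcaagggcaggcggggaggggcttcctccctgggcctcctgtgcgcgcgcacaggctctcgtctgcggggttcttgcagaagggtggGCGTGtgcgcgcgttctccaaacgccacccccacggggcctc

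The core stood 2 times in the first of the 3 *TIPARP* windows and in both windows of *AHRR*. Over the 10 genes it was in 9 of the 23 windows (39.1%), beside 32.2% of all 35116 RefSeq windows of the same length, so a match is common. It was also in 4 of 5 windows of *ESR2*, 1 of 6 of *ESR1* and 1 of 2 of *GPER1*. The 4 windows of *ESR2* overlap in pairs and hold only 2 distinct matches, and with overlapping windows of a gene merged, 7 of 20 regions held the core. The core of the estrogen response element, GGTCA, searched in the same way, was in 7 of the 23 windows and in 32.6% of all. A match describes letters and is no proof of a site, and its absence says only that the letters are not in the 250 bases searched.

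Further genes of the same pathways were followed in 8 lists, 93 genes in all, 76 of which were tested. Of these, 6 rose and 5 fell in 4-OHT ATII CM at an adjusted p below 0.05 from edgeR, which is 14.5% of those tested beside 5.72% of all genes. Their median log2 fold change was -0.029, beside -0.0020 for all genes. The called genes were spread over 6 of the lists and went both ways. Of the 12 coregulators, 1 fell and 0 rose, or 8.33% beside 5.72% of all genes. Without adjustment 4 of the 12 had a p below 0.05 from edgeR, or 33.3% beside 17.3%. The median log2 fold change was -0.032 for the coregulators, -0.0017 for the AHR partners, -0.021 for the targets of estrogen-related receptor α, -0.11 for the GPER1 path, -0.078 for other tamoxifen-binding proteins and 0.32 for the 4 genes of tamoxifen metabolism.

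Among 24 estrogen receptor targets known mostly from breast cells, 22 were tested, 3 rose and 1 fell (18.2% beside 5.72% of all genes), and the median log2 fold change was -0.057. *TFF1* and *TFF3*, trefoil factors strongly induced by estrogen in breast cells, were at 0 in every library. *CXCL12*, a chemokine, rose from 20.4 ± 1.43 to 27.6 ± 1.04 CPM (SD, n = 3 each) and its log2 fold change was 0.44 (adjusted p = 0.000672). *AREG*, an EGF receptor ligand, rose from 8.53 ± 0.641 to 12.1 ± 0.572 CPM, a log2 fold change of 0.51 (adjusted p = 0.00243). *IGFBP4*, which binds insulin-like growth factors, rose by 0.11 (adjusted p = 0.0299), a call that leaving out any of 5 libraries ended (all but control replicate 2). The gene that fell was *CCND1*, cyclin D1, from 841 ± 12.3 to 757 ± 5.14 CPM, a log2 fold change of -0.15 (adjusted p = 0.00332). These genes answer many signals besides estrogen.

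Coactivators of *ESRRA* were scarce, with *PPARGC1A* at 0.631 and 0.774 CPM and *PPARGC1B* at 0.317 and 0.415 CPM, and neither passed. Of 12 targets of estrogen-related receptor α, 1 rose and 0 fell, a share of 8.33% beside 5.72% of all genes. That was *PDK4*, a kinase that shuts glucose carbon out of mitochondria. It was at 1.71 ± 0.203 and 2.89 ± 0.630 CPM (SD, n = 3 each) and its log2 fold change was 0.76 (adjusted p = 0.0393 from edgeR). It was not called by DESeq2 or limma-voom (adjusted p = 0.062 in both), nor with the replicate number as a block (adjusted p = 0.0520 in that fit), nor with 4 of the 6 libraries left out in turn (both replicates 1 and both replicates 3).

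AHR needs ARNT to bind DNA and chaperones such as HSP90 to stay ready for a ligand. None of the 6 genes of this list was called by edgeR, DESeq2 or limma-voom, and 2 had an unadjusted p below 0.05, *ARNT* higher and *HSP90AB1* lower, a share of 33.3% beside 17.3% of all genes. *ARNT* was at 54.0 ± 1.55 and 59.3 ± 0.961 CPM (SD, n = 3 each), with groups that did not overlap and a log2 fold change of 0.13 (adjusted p = 0.0635).

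Of 11 further AHR targets, 7 were tested, 2 rose and 0 fell, with a median log2 fold change of 0.16, and without adjustment 3 had a p below 0.05, all higher. The called share was 28.6% beside 5.72% of all genes, and the unadjusted share 42.9% beside 17.3%, over 7 genes only. *CYP1A1*, the most strongly induced AHR target in most cells, had 4, 2 and 3 counts in control ATII CM, against 0, 3 and 1 in 4-OHT ATII CM. That is 9 and 4 counts, with exact Poisson intervals of 4.12 to 17.1 and 1.09 to 10.2, and *CYP1A2*, a liver enzyme, was at 0. *NQO1*, a quinone reductase that also answers the stress factor NRF2, was at 420 ± 20.3 and 469 ± 1.65 CPM (SD, n = 3 each) and its log2 fold change was 0.16 (adjusted p = 0.0119). *NFE2L2*, which encodes NRF2 itself, rose by 0.17 (adjusted p = 0.00410). The *NQO1* call ended with any of 4 libraries left out, control replicates 1 and 3 and 4-OHT replicates 2 and 3 (adjusted p up to 0.0928), whereas that of *NFE2L2* held in all 14 refits.

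GPER1 signals through SRC and shed HB-EGF to the EGF receptor. Of 8 genes on this path, 2 fell and 0 rose, and limma-voom called 1 more as risen. The 2 are 25% of the list beside 5.72% of all genes, and without adjustment 5 had a p below 0.05, or 62.5% beside 17.3%. *EGFR* was at 159 ± 17.3 and 132 ± 4.76 CPM (SD, n = 3 each) and its log2 fold change was -0.26 (adjusted p = 0.0148). Control replicate 2, at 139 CPM, lay close to the highest 4-OHT value of 137 CPM, and the call ended without control replicate 1 or 3 or 4-OHT replicate 2 (adjusted p up to 0.0941). *CCN1*, a secreted matrix protein and immediate early gene, was at 911 ± 7.32 and 807 ± 73.6 CPM, a log2 fold change of -0.18 (adjusted p = 0.0400). Its 4-OHT replicate 1 was lowest at 727 CPM, and without it the log2 fold change was -0.10 (adjusted p = 0.146). Control replicate 1 or 3 or 4-OHT replicate 3 left out ended that call too.

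Tamoxifen also binds the antiestrogen binding site, which EBP and DHCR7 of cholesterol synthesis form, and sigma receptors. Of 5 genes of this list, 1 fell and 0 rose at an adjusted p below 0.05 from edgeR, or 20% beside 5.72% of all genes. For 3 of the 5, all 4-OHT values were below all control values, which 10.4% of all genes tested showed. *EBP* and *DHCR7* did not pass, with log2 fold changes of -0.16 (adjusted p = 0.332) and -0.078 (adjusted p = 0.466). Of 15 genes that metabolize tamoxifen or conjugate its products, 9 were at 0 in every library and 4 were tested. None of the 4 was called by edgeR, DESeq2 or limma-voom, and 1 had an unadjusted p below 0.05, or 25% beside 17.3% of all genes.

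**Figure D4:**
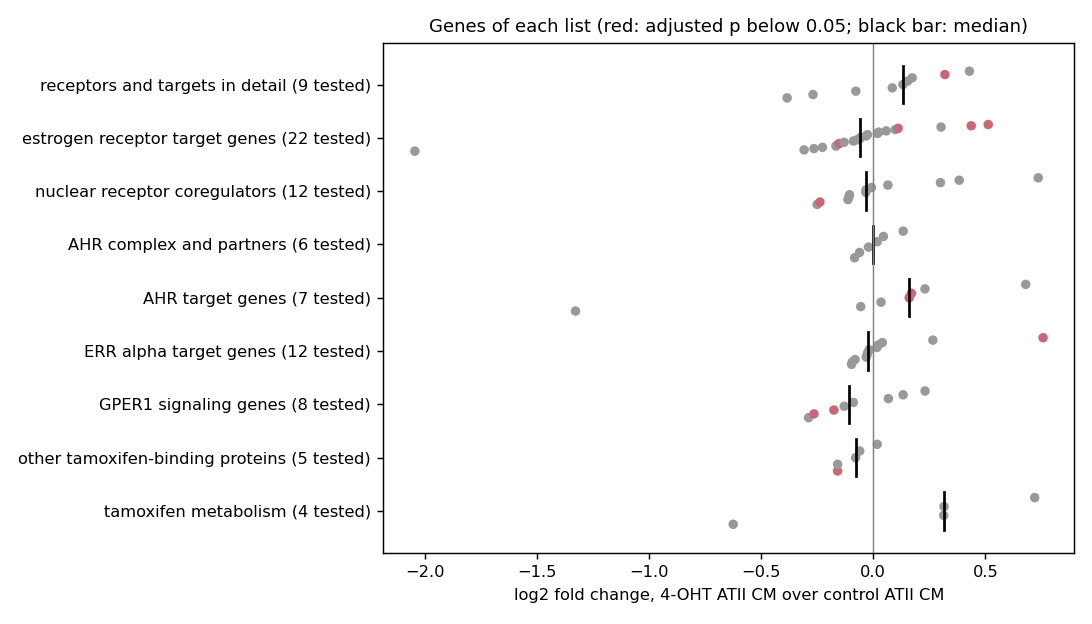
Log2 fold change, 4-OHT ATII CM over control ATII CM, of every tested gene of the 9 lists, the 10 receptor and target genes on top (9 tested). Red points have an adjusted p below 0.05, and a black bar marks the median of a list. Red points lie on either side of 0, and the 2 grey points farthest below 0, *MYB* and *CYP1A1*, had at most 4 counts in any library.

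Markers of the cells were checked beside these results. All 10 fibroblast markers were above 1 CPM, and their summed level was 41095 to 44612 CPM in control ATII CM and 42969 to 44711 CPM in 4-OHT ATII CM, with 4 of them called higher and 1 lower. That is 50.0% of the list beside 5.72% of all genes, and without adjustment 70.0% beside 17.3%. Limma-voom called 4 higher and 2 lower. The sum rests mostly on *COL1A1* and *COL1A2*, neither of which passed in the main edgeR fit. *COL1A1* was called lower in 5 of the 14 refits, and *COL1A2* was called in 1. *DCN* and *LUM*, proteoglycans of the matrix, rose by 0.33 (adjusted p = 2.66e-06 from edgeR) and 0.29 (adjusted p = 3.99e-05) on the log2 scale, and *COL3A1* and *PDGFRA* rose by 0.18 and 0.22, each in all 14 refits. *VIM* fell by 0.10 on the log2 scale (adjusted p = 0.0414), in 8 of the 14 refits. The part of these shifts in the values above was not tested. Of 16 epithelial markers, which ATII cells carried over with CM could bring, 4 were above 1 CPM, and the sum was 93.9 to 99.8 CPM in control ATII CM and 91.7 to 96.9 CPM in 4-OHT ATII CM. Of the 7 that could be tested, 0 were called by edgeR, DESeq2 or limma-voom, and 0 had an unadjusted p below 0.05. The sum rests mostly on 2 keratins, *KRT18* at 53.5 and 51.8 CPM and *KRT8* at 32.5 and 33.7 CPM (means of control and 4-OHT ATII CM). The others above 1 CPM were *KRT19* (7.73 and 6.59 CPM) and *KRT7* (1.65 and 1.43 CPM). Over all libraries, *CLDN7* had 116 counts, *EPCAM* 48 and *SFTPC* 1, and *NKX2-1* and *SFTPA1* were at 0. Whether any of these counts came from carried-over ATII cells was not tested.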

How the data were processed

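The authors used Trim Galore for trimming, HISAT2 2.1.0 for alignment to GRCh38 and featureCounts 1.6.5 for counting per gene, and they deposited raw counts, 1 column per library, with the exon length of each gene. The annotation release, the strand setting and the handling of shared bases are not given in the sources used here, so counts of overlapping genes are less certain. Counts of 45 identifiers listed on X and Y were added, and symbols came from GENCODE 44. Totals were 17691849 to 26389449 counts (median 22273931). The replicates of a group differed by more than sampling noise (chi-square per degree of freedom 2.12 to 6.03, the 2 highest with control replicate 2).

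Genes with at least 10 counts summed entered a quasi-likelihood test of edgeR 4.0.16 in R 4.3.3 (TMM scaling, group only, Benjamini-Hochberg, threshold 0.05). Standard errors and 95% intervals were derived from the fold change and F. DESeq2 1.42.0, limma-voom (limma 3.58.1), other scalings and filters, a replicate block and each library left out were alternatives, and the tests were tested on simulated data. Poisson intervals and floors cover counting error only.

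The 10 genes, the lists and the rule for naming genes (the 10 genes, list genes past the threshold, a few fixed partners and the nearest profiles) were chosen with earlier results of these data known. *HSP90AB1*, *MYB*, *SERPINB2*, *TFF3*, *COL1A1*, *COL1A2*, *COL3A1*, *DCN*, *LUM*, *PDGFRA*, *VIM*, *KRT7*, *KRT8*, *KRT18*, *KRT19*, *CLDN7*, *EPCAM*, *PPARGC1A* and *PPARGC1B* were named after their values were seen. Results of a few list genes are not reported here, though the counts over all lists include them.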

Additional observations from a re-analysis of the deposited data

How the results depend on the processing

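Of 123 values of the 9 tested genes under 14 alternatives, 119 kept their direction and their side of the threshold. *TIPARP* was upregulated in all 14, with log2 fold changes from 0.31 to 0.34 and adjusted p values from 2.04e-10 to 0.00247. *AHRR* became upregulated with no filter on low counts (adjusted p = 0.0228) and without 4-OHT replicate 1, and *GREB1* changed sign with 1 library left out, from -0.40 to 0.38. The cause was not tested. With no filter, 875 genes were upregulated in place of 563, 2 of the 10 genes were, and 9 list genes rose and 8 fell. Requiring at least 1.5-fold left 28 genes up and 64 down, none of the 10 genes (0), and 1 list gene up and 0 down. Leaving out 1 library at a time gave 289 to 696 genes up (fewest without 4-OHT replicate 2) and 244 to 834 down (most without control replicate 2), 1 to 2 of the 10 genes up and 0 down, and 3 to 7 list genes up and 2 to 10 down. The replicate numbers did not pair the libraries (correlation of deviations between same-numbered libraries -0.0145, -0.104 and -0.0931). A fit with the replicate block gave 502 genes up and 483 down, 1 of the 10 genes up and 0 down, 6 list genes up (*SERPINB2* gained, adjusted p = 0.0493, and *PDK4* lost) and 4 down, and 0.32 for *TIPARP*. Depth limits *ESR1*, *ESR2*, *GREB1* and *CYP1A1*, which had at most 15 counts in a library.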
